A study of Arabidopsis thaliana with 6 samples.

Results

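The array titled glc was set against the array titled zer, probe set by probe set, and each difference was then read on the other 4 arrays of the series, titled wat, OMG, DOG and man. These 2 arrays of 6 are the whole of the comparison, and each is the only array of its group. Whole Arabidopsis thaliana seedlings (accession Col-0) were taken at developmental stage 1.02. All 6 groups share that genotype and the growth conditions: continuous light at 23 °C, reduced-strength Murashige and Skoog medium set with 0.8% agar, and 72 h of stratification at 4 °C. The labels enter no treatment for any array and give no dose, duration or number of pooled seedlings, so the groups rest on the array titles. Since the series title speaks of glucose and of analogs that cells cannot metabolise, glucose is the reading given to glc and analog that given to OMG and DOG, while zer, wat and man are kept as written because no source used here spells them out.

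Glucose is both a carbon source and a signal in plants. Hexokinase phosphorylates it and also acts as a sensor, and the kinase SnRK1 is active when carbon is short and induces genes that break down amino acids, lipids and other reserves. Well-fed cells, by contrast, invest in ribosome production, which starts with the transcription of ribosomal RNA genes by RNA polymerase I. A transcript can differ between glc and zer because glc stands apart from the other arrays, because zer does, or because both do. The readings on wat, OMG, DOG and man show on which side those arrays lay, but do not always separate these cases.

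Of 22746 probe sets, 12036 (52.9%) had a signal at or above the array median in glc, in zer or in both, and these were compared. Signals are on the linear MAS5 scale, and the 40th percentile of each array (28.8 in zer and 27.2 in glc) was the floor to which lower signals were raised. Where 1 of the values was at the floor, the fold is only a minimum and carries the words at least. With 1 array a group there is no test, standard error or replicate check of any difference, and the number of arrays limits the precision. The median log2 difference, glc minus zer, was 0.00 over all probe sets compared. Whole-seedling markers were present on both arrays. The root gene PYK10 read 3311 in zer and 3016 in glc, and the chlorophyll-binding protein gene LHCB4.1 of green tissue read 3444 and 2892. The 3' to 5' signal ratio of the actin control (it rises when labelled transcripts are shortened) was 7.48 in zer and 6.41 in glc but lay between 3.46 and 4.66 on the other 4 arrays. The ubiquitin control ratio was 2.84 in zer and 2.73 in glc and lay between 2.24 and 2.48 elsewhere. The GAPDH ratio did not separate them, at 1.38 in zer, 1.26 in glc and 1.21 to 1.35 on the other arrays. The part of these ratios in the results below was not tested.

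At least 2-fold higher in glc than in zer were 90 probe sets (0.748% of those compared), and at least 2-fold lower were 124 (1.03%), together 214 (1.78%). In whole seedlings, fewer cells of a type and less RNA per cell cannot be told apart. The excess of lower over higher was absent when both arrays had to pass the median, which left 60 higher and 61 lower. At 3-fold or more, 9 were higher and 29 lower, and at 4-fold or more 0 were higher and 7 lower. For scale, the 6 pairs that involve neither glc nor zer had between 10 and 48 probe sets 2-fold apart, the fewest being between OMG and DOG (0.0845% of 11833). By the number of probe sets 2-fold apart, glc and zer ranked 8 of the 15 pairs of arrays. Of the 214 probe sets, 26 had a gene symbol and 85 a locus identifier only, and the rest were named for several genes or are unnamed here.

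**Figure D1:**
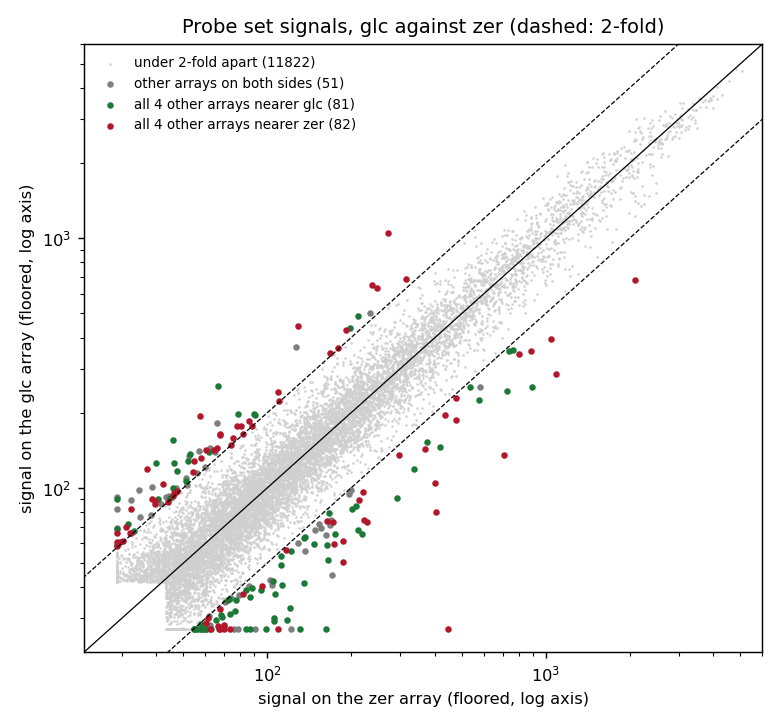
Signal on the glc array against signal on the zer array for the 12036 probe sets compared, both on log axes with low signals raised to the floor. Dashed lines mark 2-fold, and colours show whether the other 4 arrays all lie nearer glc (81 probe sets), all nearer zer (82) or on both sides (51).

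Each of the 214 probe sets was placed by its readings on the other arrays. On the log2 line from zer to glc, an array at or past the midpoint was counted with glc and any other with zer. Among the 90 probe sets higher in glc, all 4 arrays lay with zer for 45 (50%), all 4 lay with glc for 22 (24.4%), and 23 (25.6%) were mixed. Among the 124 lower in glc the order was turned. All 4 lay with glc for 59 (47.6%), with zer for 37 (29.8%), and 28 (22.6%) were mixed. The 11822 probe sets under 2-fold apart, read the same way, gave 23.9% with glc, 35.4% with zer and 40.6% mixed. The 24.4% with glc among the higher set was therefore near this background. The 29.8% with zer among the lower set was below its background of 35.4%, so that class was not over-represented. With both arrays required to pass the median, the turned order of the lower set was nearly lost, at 25 with glc and 23 with zer of 61. The 4 arrays lie close to one another, so they are not 4 separate readings of a condition. An odd reading on zer alone places all 4 with glc, an odd reading on glc alone places all 4 with zer, and with 1 array each these cannot be told apart from a difference between the seedlings.

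**Figure D2:**
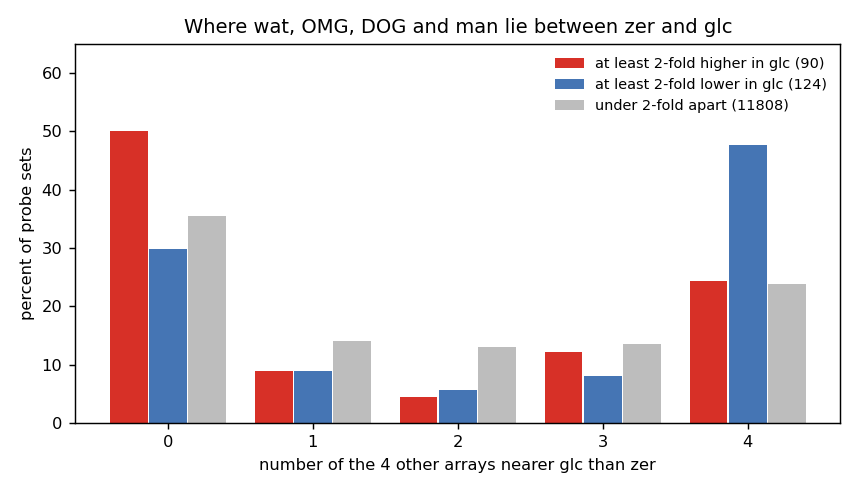
Percent of probe sets by how many of the 4 other arrays (wat, OMG, DOG, man) lie nearer glc than zer, for 90 probe sets higher in glc, 124 lower in glc and 11808 under 2-fold apart (14 more had equal signals and no side). Bars at 0 are probe sets with all 4 arrays nearer zer and bars at 4 those with all 4 nearer glc. Lying nearer zer does not mean reading like zer. The bar at 4 holds 47.6% of the lower set. With both arrays required to pass the median, 25 of 61 lower probe sets stood at 4 and 23 at 0.

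A stricter reading asked that 1 array be at least 2-fold from every other. Of the 90 higher probe sets, glc stood 2-fold above all 5 other arrays in 18, and zer stood 2-fold below all 5 others in 11. Of the 124 lower ones, glc was 2-fold below all others in 30 and zer 2-fold above all others in 31. By this measure, glc and zer stood apart from every other array about equally often among the lower transcripts. The measure does not ask that the remaining arrays read alike, so it does not single out differences of glc alone or of zer alone. GAT1_2.1, for example, read 50.3 in glc and 187.5 in zer, but 508.6 to 791.3 in wat, OMG, DOG and man.

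Lying nearer zer did not mean being like zer. For the 37 probe sets that were lower in glc with the other arrays on the zer side, the median log2 difference from zer was -1.32 in glc but 0.63 in wat, 0.68 in OMG, 0.60 in DOG and 0.83 in man. In 26 of the 37, all 4 arrays read above zer, in 19 by at least 1.5-fold and in 5 by at least 2-fold. For most of these transcripts zer therefore read between a low glc and 4 higher arrays. The 45 probe sets higher in glc behaved otherwise. Their median difference from zer was 1.13 in glc and 0.02, 0.06, 0.18 and -0.11 in wat, OMG, DOG and man. In 9 of 45 all 4 arrays lay past zer on the side away from glc, and in 0 of 45 by 1.5-fold. Where the arrays lay with glc, they were picked for lying past the midpoint, so nearness to glc is partly fixed by that choice. In 13 of the 59 lower probe sets of this kind, glc was at the floor. The medians of the 59 lower probe sets were -1.28 in glc and -1.22, -1.21, -1.14 and -1.36 in wat, OMG, DOG and man. For the 22 higher ones they were 1.19 in glc and 1.21, 1.24, 1.49 and 1.73, so that man stood further from zer than glc did.

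**Figure D3:**
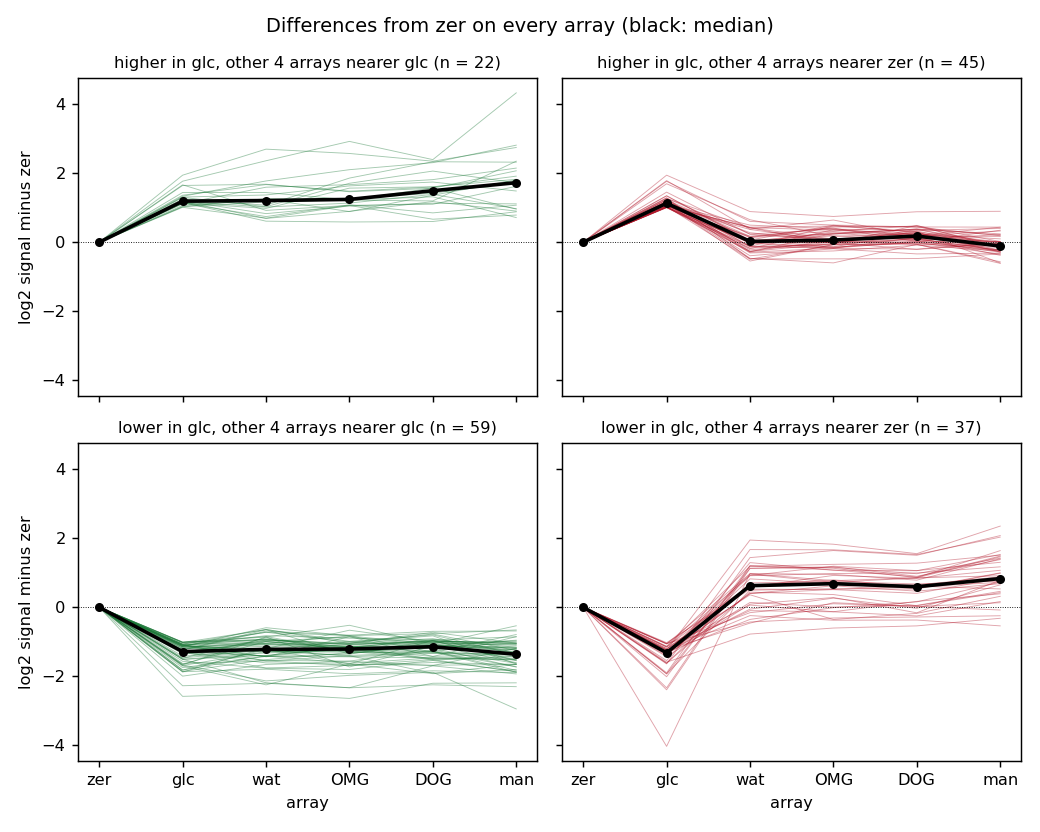
Log2 signal minus that of zer on every array, 1 thin line per probe set at least 2-fold apart between glc and zer, with the median in black; n is the number of probe sets, and the order of arrays has no meaning. In the panel of 37 probe sets lower in glc with the other arrays nearer zer, the medians of wat, OMG, DOG and man lie between 0.60 and 0.83, above zer.

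Of the 14 probe sets named for 1 gene that were lower in glc with all other arrays on the zer side, 4 belong to the list of amino acid breakdown genes. GAT1_2.1, a glutamine amidotransferase-like gene, read 187.5 in zer, 50.3 in glc, 508.6 in wat, 586.0 in OMG, 532.8 in DOG and 791.3 in man, and was 3.73-fold lower in glc than in zer. MCCA, a subunit of methylcrotonyl-CoA carboxylase of leucine breakdown, read 369.6 in zer, 142.7 in glc, 697.0 in wat, 728.0 in OMG, 737.0 in DOG and 833.0 in man. Its partner subunit MCCB read 474.6 in zer, 186.5 in glc and 625.9 to 762.7 on the other 4 arrays. These were 2.59-fold and 2.54-fold lower in glc than in zer. In all 3 genes glc was the lowest array, which follows from the pattern they were picked from. The zer array was the next, and the other 4 did not overlap with either. ASPGB1, an asparaginase that frees ammonium from asparagine, read 82.0 in zer, 37.5 in glc and 186.7 to 233.6 elsewhere, 2.19-fold lower in glc.

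Of 28 entries in the list of amino acid breakdown genes, 10 were measured by a probe set of their own, and all 10 were compared. Their log2 differences, glc minus zer, were all below 0, with a median of -0.86 and a range from -1.90 to -0.06. In this list 4 of 10 were 2-fold lower and 0 higher, beside 1.03% and 0.748% of all probe sets. Of the 4, ASPGB1 read below the glc array median of 42 and was compared only because of its zer signal. For 9 of the 10, glc read below zer while all 4 other arrays read above it, an arrangement found in 9.36% of all probe sets compared. The exception was MGL, methionine gamma-lyase, which read 80.8 in zer, 41.1 in glc, 80.7 in DOG and 101.2 to 182.7 on the other 3. Its difference was -0.98, just under 2-fold. ETFQO, which passes electrons from leucine and valine breakdown to the respiratory chain, differed by -0.74, and IVD, isovaleryl-CoA dehydrogenase, by -0.64. ALDH6B2 of valine breakdown differed by -0.56 and D2HGDH, a hydroxyglutarate dehydrogenase, by -0.06. The lists were drawn up with earlier results of these data known, so their direction is not independent support.

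The list of sugar starvation genes had 11 measured genes of 37 entries and 10 compared, with a median of -0.55. It held 2 genes 2-fold lower and 0 higher, beside 1.03% and 0.748% of all probe sets. Both, MCCA and MCCB, and also IVD are shared with the amino acid list and enter this median, and the other genes compared were under 2-fold. All 4 other arrays read above both glc and zer in 10 of 10 genes, beside 15.4% of all probe sets compared. AKINBETA1, a regulatory subunit of SnRK1, read 320.9 in zer, 206.1 in glc and 523.4 to 629.4 on the other arrays. Its 1.56-fold difference between zer and glc was smaller than the distance from zer to any of the other 4 arrays. ATG8F, an autophagy protein gene, read 927.7 in zer, 596.6 in glc and 994.0 to 1129 elsewhere, while its relative ATG8E read 347.1, 292.8 and 469.7 to 582.0. The transcription factor gene BZIP53 read 433.4 in zer, 343.1 in glc and 463.9 to 517.2 on the other 4. For ATG8B, zer and glc read alike, at 84.0 and 85.8, and the other arrays read 114.0 to 144.4.

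ICL, isocitrate lyase of the glyoxylate cycle, which turns stored fat into sugar, was at least 2.49-fold lower in glc. It read 67.8 in zer, 21.0 in glc, 101.7 in wat, 128.6 in OMG, 121.4 in DOG and 142.5 in man. The other 2 measured genes of its list also read lower in glc than in zer, by less. SDP1, the lipase that opens oil reserves, differed by -0.44, and AIM1 of fatty acid oxidation by -0.47. PPDK, pyruvate orthophosphate dikinase, read 435.5 in zer, 238.8 in glc and 621.5 to 874.8 elsewhere, a difference of -0.87 that stayed under 2-fold. HIS1-3, which encodes a drought-inducible linker histone, differed by at least 2.69-fold, at 73.3 in zer, 21.9 in glc and 65.6 to 126.5 on the other arrays. PDF1.4, a defensin-like gene, read 187.4 in zer and 61.2 in glc, 3.06-fold lower, with the other 4 between 193.5 and 254.2. Outside the naming rule, and picked after its values were seen, the probe set furthest apart is unnamed here. It read 444.4 in zer, 14.9 in glc and 766.4 to 1178 on the others, at least 16.3-fold lower in glc. Another unnamed probe set read 709.2, 135.2 and 1391 to 1904, 5.25-fold lower.

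**Figure D4:**
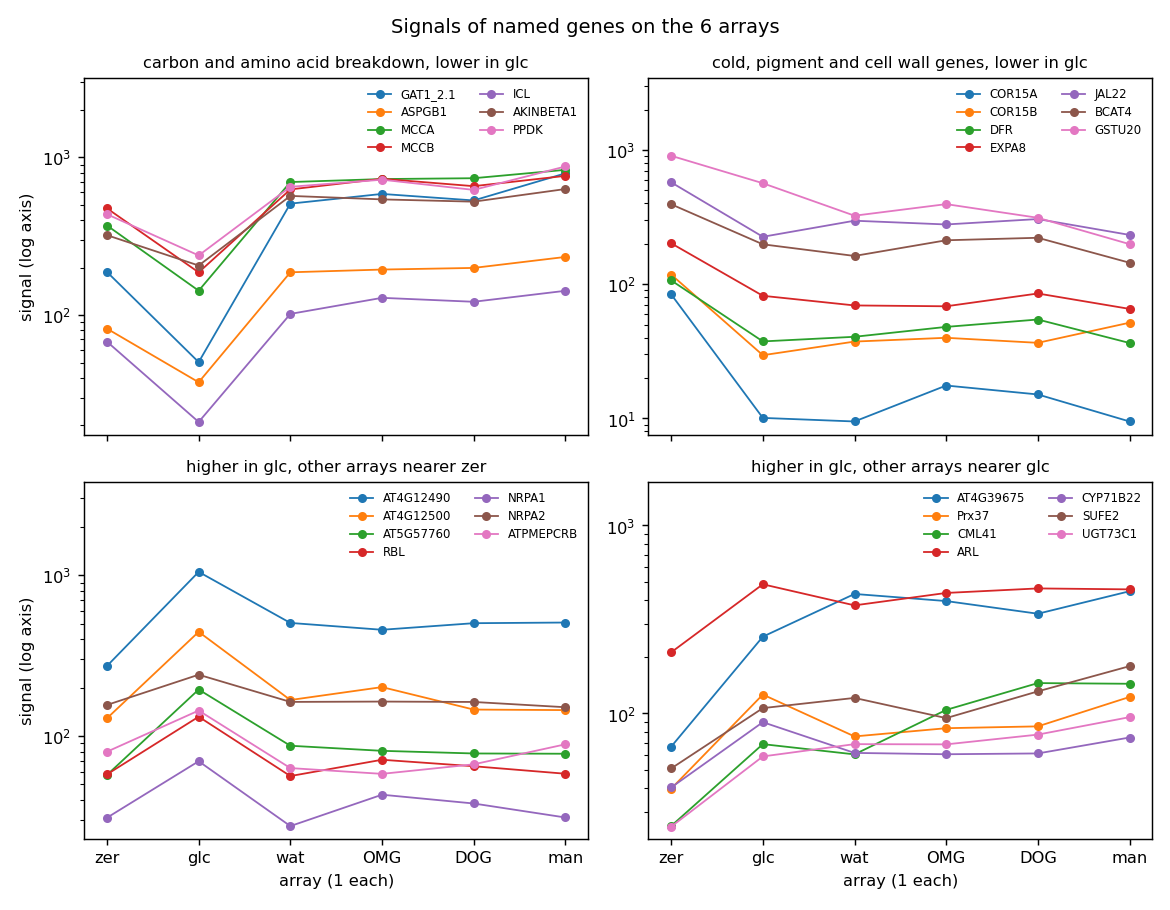
Signal on a log axis of 28 named genes on each of the 6 arrays, 1 array a group; lines join the readings of 1 gene and the order of arrays has no meaning. Breakdown genes such as GAT1_2.1 read lowest in glc, intermediate in zer and highest elsewhere, whereas COR15A, COR15B, DFR and EXPA8 stand apart in zer alone.

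Of 4 ribosome production genes compared, 1 was 2-fold higher in glc, with the other arrays on the zer side. This gene, NRPA1, which encodes the largest RNA polymerase I subunit, read 31.0 in zer, 69.6 in glc, 27.5 in wat, 43.1 in OMG, 38.0 in DOG and 31.1 in man, and was 2.25-fold higher in glc than in zer. The low readings lie close to the floor. NRPA2, the second-largest subunit of that enzyme, had a brighter probe set and read 155.9 in zer, 240.4 in glc and 150.9 to 163.6 elsewhere. AT5G14520, listed under the name PESCADILLO, a factor in the maturation of large-subunit ribosomal RNA, read 242.7 in zer, 368.5 in glc and 214.1 to 236.8 elsewhere. The glc array was the highest of all 6 for each of these 3 genes, an arrangement found in 29% of all probe sets compared. NRPA2 (log2 difference 0.62) and AT5G14520 (0.60) were under 2-fold. DIM1A, a ribosomal RNA dimethylase, read nearly alike on both arrays, at 102.6 in zer and 101.8 in glc. The 4 genes, of 48 entries, had a median of 0.61. The single gene at 2-fold stands beside 0.748% of all probe sets, and with so few genes it says little about the list. RBL, known as REBELOTE from work on flower meristems, read 57.7 in zer, 131.7 in glc and 56.3 to 71.1 elsewhere, 2.28-fold higher in glc.

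The largest folds in this direction belonged to loci without a symbol. AT4G12490 read 272.5 in zer, 1048 in glc, 504.6 in wat, 457.5 in OMG, 502.7 in DOG and 507.5 in man. It was 3.85-fold higher in glc, but the other 4 arrays also stood above zer, just short of the midpoint. Its chromosome 4 neighbour AT4G12500, with 1 gene between them, read 128.8 in zer, 444.2 in glc and 144.8 to 201.3 elsewhere, 3.45-fold higher in glc. AT5G57760 read 57.2, 194.4 and 77.5 to 86.9 and was 3.40-fold higher, and AT5G47455 read 32.3, 82.0 and 26.1 to 45.5. ATPMEPCRB, a pectin methylesterase that acts on the cell wall, was highest in glc too, at 143.9, with 79.8 in zer and 58.1 to 88.7 elsewhere, but its difference of 0.85 was under 2-fold.

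In the group of 59 lower probe sets with all other arrays on the glc side, the largest differences belonged to a pair of probe sets unnamed here. These read 162.8 and 131.5 in zer and 18.5 and 15.4 in glc, at least 5.99-fold and 4.83-fold lower. The largest difference of a gene with a symbol was that of COR15B. This gene and COR15A encode chloroplast proteins that protect membranes in the cold and lie next to each other on chromosome 2. COR15B read 118.0 in zer, 29.6 in glc, 37.4 in wat, 39.9 in OMG, 36.6 in DOG and 51.7 in man, 3.99-fold lower in glc. COR15A read 84.0 in zer and was under the floor on all other arrays (9.5 on wat and man, 10.1 on glc and 15.1 on DOG), so it was at least 3.09-fold lower in glc. The zer array did not overlap with the others for either gene, which follows from the pattern they were picked from. LTI30, a cold-induced dehydrin gene, read 325.3 in zer, 229.9 in glc and 231.0 to 288.9 elsewhere, and COR47 differed by -0.06. The abscisic acid, cold and osmotic stress list had 5 genes compared of 50 entries, with 3 at least 2-fold lower, 0 higher and a median of -1.43, beside 1.03% lower and 0.748% higher of all probe sets. The remaining gene at 2-fold, HIS1-3, was not highest in zer, as given above, and its floor-limited value is the list median. All 3 genes at 2-fold read below the glc array median of 42 and were compared only because of their zer signal.

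DFR, dihydroflavonol reductase of anthocyanin synthesis, read 106.8 in zer, 37.5 in glc and 36.5 to 54.6 on the other arrays, 2.85-fold lower in glc. UGT78D2, a flavonoid glucosyltransferase, read 260.8 in zer and 266.1 in glc, with 180.6 to 205.7 elsewhere, so the pigment genes did not share 1 pattern. JAL22, a jacalin-related lectin gene, read 573.9 in zer, 225.6 in glc and 233.0 to 305.8 elsewhere, and EULS3, of the Euonymus lectin type, read 86.4, 36.5 and 49.4 to 53.7. They were 2.54-fold and 2.37-fold lower in glc. ZW9 read 766.0, 357.0 and 396.5 to 433.2 and was 2.15-fold lower. BCAT4, of methionine-derived glucosinolate synthesis, read 394.1 in zer, 198.3 in glc and 144.6 to 221.8 elsewhere, at 1.99-fold just short of the threshold. Just inside the threshold lay AUR2, an Aurora kinase gene of cell division, at 61.9 in zer, 30.6 in glc and 31.4 to 56.6 elsewhere. Of 4 cell cycle genes compared it was the only one lower in glc, and AUR1, AUR3 and PRL differed by 0.19, 0.32 and 0.27.

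Of 8 expansin genes compared, whose products loosen the cell wall during growth, 1 was 2-fold lower in glc and 0 higher, beside 1.03% and 0.748% of all probe sets. Their median was -0.15, with 6 below 0 and 2 above, EXPA7 (0.20) and EXPA18 (0.12). EXPA8 read 201.8 in zer, 82.0 in glc, 69.5 in wat, 68.5 in OMG, 85.3 in DOG and 65.5 in man, 2.46-fold lower in glc. EXPB3 read 124.8 in zer, 78.9 in glc and 39.6 to 74.8 elsewhere, a difference of -0.66. EXPB1 read 46.3 in zer and was under the floor on all others. In the whole cell wall and expansion list, 17 of 83 entries were compared, 7 above 0 and 10 below, with a median of -0.06. Only EXPA8 in this list was 2-fold apart. GSTU20, a glutathione transferase gene, read 905.2 in zer, 565.3 in glc and 198.9 to 395.0 elsewhere, so glc lay between zer and the rest. Of the detoxification and oxidative stress list, 8 genes were compared, 6 of them below 0 (median -0.32) and 0 at 2-fold.

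All 5 other arrays read above zer in 17.1% of all probe sets compared. The genes named here are those of this kind with large folds between glc and zer, among them genes of stress and growth. Prx37, a cell wall peroxidase gene, read 39.8 in zer, 126.1 in glc, 75.5 in wat, 83.5 in OMG, 85.4 in DOG and 122.4 in man, a log2 difference of 1.66 between glc and zer. The calcium sensor gene CML41, related to calmodulin, read 25.2 in zer, under the floor, 68.7 in glc, 60.6 in wat, 104.5 in OMG, 145.1 in DOG and 143.9 in man. It was at least 2.39-fold higher in glc, and glc and wat were nearest to zer. ARL, an ARGOS-like gene of organ growth, read 211.5 in zer, 486.7 in glc and 375.9 to 462.6 elsewhere, more than 2-fold higher in glc. The zer array was the lowest for all 3 genes, which follows from the pattern they were picked from.

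AT4G39675 read 66.6 in zer, 256.2 in glc and 339.3 to 446.9 elsewhere, 3.85-fold higher in glc and higher still on the rest. SUFE2, a gene of plastid iron-sulfur cluster assembly, read 51.0, 106.8 and 94.5 to 178.5, and CYP71B22, a cytochrome P450 gene, read 40.4, 89.9 and 60.7 to 74.5. They were 2.09-fold and 2.23-fold higher. UGT73C1, a glucosyltransferase gene, was at least 2.05-fold higher, at 25.0 in zer, 59.1 in glc and 68.5 to 95.6 elsewhere. PDF1.2b, a defensin gene whose probe set can be shared with close relatives, read 59.2 in zer, 114.0 in glc, 89.5 in wat and 192.0 to 532.8 on the other 3, and was under 2-fold in glc against zer.

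In the list of touch, wounding and early stress genes, the median of glc was nearer to zer than the medians of the other arrays. All 4 other arrays read above both glc and zer in 4 of 6 genes, beside 15.4% of all probe sets compared. All 6 genes compared, of 80 entries, read above zer in glc, with a median of 0.24, while their medians in wat, OMG, DOG and man were 0.71, 0.69, 0.93 and 0.83. The zinc finger gene STZ read 67.8 in zer, 87.9 in glc and 141.3 to 198.8 elsewhere. WRKY22, a defence transcription factor gene, read 65.7, 74.2 and 102.8 to 133.8. Only CML41 in this list was 2-fold apart, 1 of 6 beside 0.748% higher of all probe sets. It was compared only because of its glc signal, and its wat reading was nearer to zer than glc was. Heat shock genes had 3 of 36 entries compared, all above 0 with a median of 0.59. The highest was Hsp70-2, a chaperone gene, at 74.0 in zer, 118.2 in glc and 83.1 to 105.1 elsewhere.

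**Figure D5:**
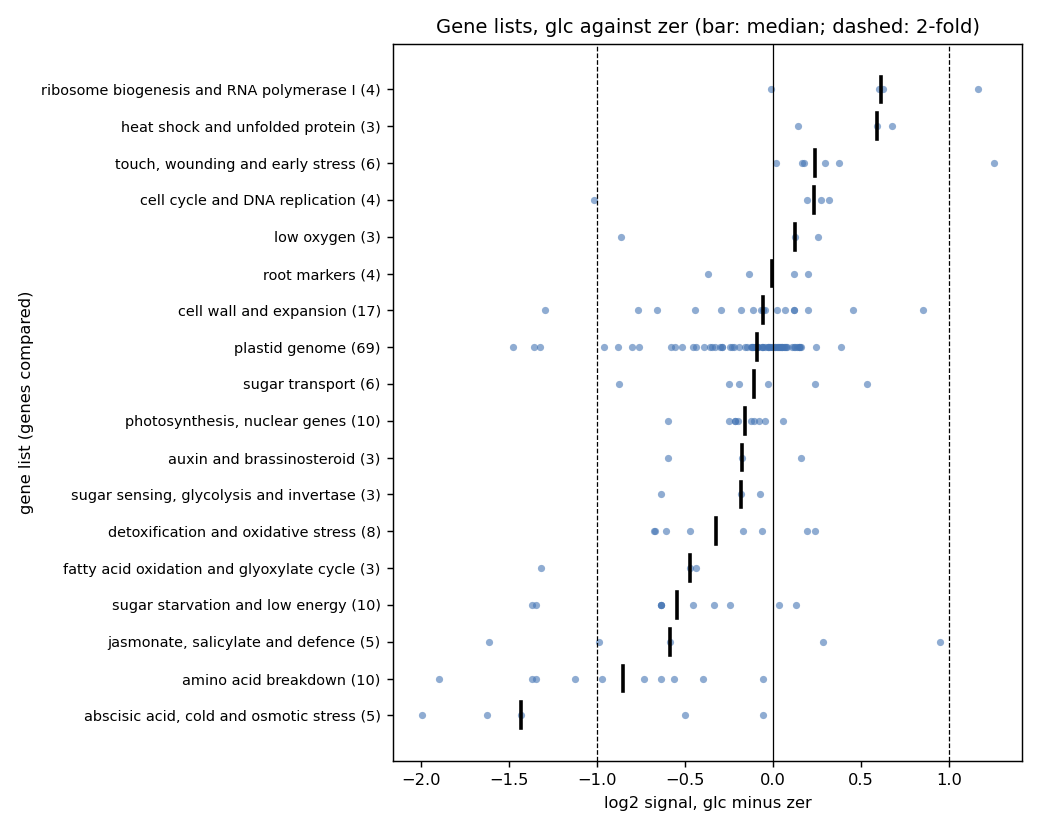
Log2 difference, glc minus zer, of each gene compared in the lists with at least 3 such genes and in the plastid genome; bars are medians, dashed lines mark 2-fold and the number compared is in brackets. Medians run from -1.43 for abscisic acid, cold and osmotic stress to 0.61 for ribosome biogenesis, beside 0.00 over all probe sets. The 3 genes 2-fold lower in the abscisic acid, cold and osmotic stress list passed the array median in zer only.

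Most other lists had medians nearer to that of all probe sets. Nuclear photosynthesis genes had 10 compared, 9 of them below 0, a median of -0.16 and 0 at 2-fold. LHCB4.2 had the largest difference, at 2256 in zer, 1490 in glc and 1689 to 1982 elsewhere. Sugar transport genes had 6 compared, a median of -0.11 and 0 at 2-fold. In that list the vacuolar transporter gene TMT2 read 77.9 in zer, 42.4 in glc and 41.8 to 64.8 elsewhere, and the exporter gene SWEET1 read 191.5, 277.6 and 236.2 to 269.2. Medians were 0.12 for low oxygen (3 genes), -0.18 for sugar sensing and glycolysis (3), -0.18 for auxin and brassinosteroid (3), -0.01 for root markers (4) and -0.59 for jasmonate, salicylate and defence (5). Only PDF1.4 among these 5 lists was 2-fold apart. Lists with 1 or 2 genes compared gave 0.32 for the clock gene GI, -0.24 and -0.05 for the starch genes SBE2.2 and DPE1, -0.59 and -0.02 for BHLH101 and PYE of iron deficiency, and -0.45 and -0.28 for PORB and HYH of the light list. No gene of the nitrate list was measured and none of the seed list was compared.

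Genes of the plastid genome were measured by 69 probe sets, all of them compared. Their median difference was -0.09, with 46 below 0 and 23 above, and 3 were 2-fold lower (4.35%, beside 1.03% of all probe sets). These 3 were mixed, with man on the side of zer in each. The ribosomal protein gene rps14 read 104.4 in zer, 40.7 in glc, 46.3 in wat, 38.0 in OMG, 41.3 in DOG and 151.2 in man. The cytochrome complex gene petD read 163.0 in zer, 65 in glc, 60.2 in wat, 74.8 in OMG, 64.5 in DOG and 190.2 in man. For both genes zer and man were high and the other 4 arrays did not overlap with them. The dehydrogenase subunit gene ndhF was at least 2.79-fold lower in glc, at 75.9 in zer, 24.0 in glc, 31.8 in wat, 35.7 in OMG, 58.7 in DOG and 66.4 in man. Both rps14 and ndhF read below the glc array median of 42 and were compared only because of their zer signal. The 4.35% includes them. The actin ratio was 7.48 in zer, 6.41 in glc and 4.55 in man, and its part in these differences was not tested.

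The 51 mixed probe sets were divided among the arrays as follows. Among the 28 lower in glc, wat lay with glc in 13, OMG in 17, DOG in 16 and man in 9. Man was the only array on the side of zer in 6 of the 28, wat in 3, OMG in 1 and DOG in 0. Among the 23 higher in glc, wat lay with glc in 10, OMG and DOG in 15 each and man in 9, and wat alone was on the side of zer in 5.

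Among the loci 2-fold apart, 6 pairs lay within 3 genes of each other on a chromosome. In 5 pairs both members differed in the same direction, among them COR15B with COR15A and AT4G12490 with AT4G12500. The pair that did not was AT4G15660 and AT4G15690 on chromosome 4, with 2 genes between them. AT4G15660 read 34.6 in zer, 98.4 in glc and 34.7 to 67.5 elsewhere. AT4G15690 read 105.9 in zer, 30.0 in glc and 34.0 to 54.6 elsewhere, so that these neighbours were 2.84-fold higher and 3.53-fold lower in glc. These pairs were picked by gene order after the folds were known, and the share for pairs far apart was not computed. In the same-direction pair AT2G15960 and AT2G16005, the other arrays lay with zer for AT2G15960 but with glc for AT2G16005.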

How the data were processed

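Biotin-labelled RNA of whole seedlings was read on 6 oligonucleotide arrays, grouped by title. The deposited values are linear signal intensities, 1 per probe set, from MAS5 as named in the submitters' processing notes, which state neither version nor settings. In every deposited column the mean is 100 once the lowest and highest 2% of values are dropped, so a change shared by most transcripts would not show.

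The 64 control probe sets were left out of the comparison and used only for 3' to 5' ratios. Floors, folds and positions were computed with Python 3.11.15 and pandas 2.3.3. The procedure was tested on simulated data with large changes in bright probe sets only. That run does not cover changes near 2-fold or signals at the floor. No statistical test was run, since each group has 1 array. The platform annotation names a single gene for 13513 probe sets, 13436 of them matched to the TAIR10.1 gene table, several genes for 503, and none for 8730. Symbols other than a locus exist for 1580. Of 1063 entries in 24 gene lists, 150 were measured by a probe set of their own, and the brightest one stood for a gene.

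Genes were named by a rule: the 12 largest folds in each direction, then the 6 largest in each of 4 patterns (higher or lower, all arrays with glc or with zer), symbols before loci, then up to 4 members of each list. Further members of these lists, plastid genes, loci and unnamed probe sets were added after their values were seen. The list entry CHI was removed because the gene table assigns that symbol to a chitinase. The comparison, lists and rule were chosen with earlier results of these data known. Promoter motifs were planned but not analysed here. The alternatives were 2 other floors, a filter on both arrays, 2 other scalings, fewer probe sets, a stricter pattern border and leaving out each of the 4 arrays.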

Additional observations from a re-analysis of the deposited data

How the results depend on the processing

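With 1 array a group, no alternative replaces a replicate. The counts of 90 higher and 124 lower probe sets stayed within 1.5 times under 5 of 6 alternatives, at 87 to 114 and 112 to 153. Requiring both arrays to pass the median left 60 and 61, since it removes probe sets that are dim on 1 array. The same filter left 25 of the lower probe sets with all other arrays with glc and 23 with zer, in place of 59 and 37. With a stricter border, which places no array from the middle of the distance between glc and zer, the higher probe sets with all arrays with zer numbered 26 in place of 45. Every other pattern count stayed within 1.5 times, including those without wat, OMG, DOG or man. The share of higher among all called ran from 42.1% to 49.6%, and equal medians moved the median of all probe sets to 0.04. Of 30 named genes 2-fold apart, 29 kept that fold wherever an alternative compared them. The filter on both arrays did not compare genes that passed the median on 1 array only, among them DFR, ICL and NRPA1. For many of the 30 it therefore gave no check. AUR2 read -0.96 after quantile normalization and -0.98 with equal medians, and BCAT4 passed 2-fold (-1.02) after quantile normalization. The cause was not tested. Signals near the floor limit what can be said of dim genes such as NRPA1. No paired analysis was possible because each group has 1 array.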
